A study of Homo sapiens with 20 samples.

Results

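The S100 calcium-binding proteins are described here in HEL cells, a JAK2-mutant human erythroleukaemia line, across a phosphatase inhibitor, an RSK kinase inhibitor, their combination and cells that persist under JAK2 inhibitors. The 10 members were chosen by gene symbol, S100A4, S100A6, S100A8, S100A9, S100A10, S100A11, S100A13, S100A16, S100B and S100P, out of 55093 genes in the BCI and in the BI-D1870 table of gene counts and 34213 in the persistent table. All 10 are listed in every table. Counts sufficed to test 8 of the 10 in each table, and S100A8 and S100A9 were left untested throughout. RNA sequencing was done on 20 libraries in 10 groups of 2. One table covers treatment for 48 h or 4 h with 1 µM BCI, which inhibits the dual-specificity phosphatases DUSP1 and DUSP6, or with the solvent DMSO. The BI-D1870 table covers 24 h with 10 µM BI-D1870, a blocker of the RSK kinases, plus 1 µM BCI, with 10 µM BI-D1870 alone, or with DMSO. The persistent table covers fedratinib-persistent cells (FedP) and ruxolitinib-persistent cells (RuxP), derived by long culture with a JAK2 inhibitor, and parental HEL cells, with no treatment time in the labels. Whether the persistent cells are clones or mixed populations, and whether replicates were separate experiments, is not stated in the sources used here. The p-values therefore refer to the spread between these libraries, which may be technical.

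S100 proteins are small calcium sensors of the EF-hand family that work mostly as dimers. Calcium opens a hydrophobic face on the dimer, which then docks onto targets such as annexins, myosin and other cytoskeletal proteins, co-chaperones and p53. Several members are also released from cells and act on receptors such as AGER and TLR4, and in blood S100A8 and S100A9 form calprotectin, the alarmin of neutrophils and monocytes. S100A10 is the exception of the family, since it no longer binds calcium and is held permanently open in a complex with annexin A2.

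Libraries held 51799814 to 84452743 counts. Values are given as CPM, the counts of a gene scaled by TMM library size, and a difference was called where the adjusted p of edgeR's quasi-likelihood test, over all genes of a table, was under 0.05. The library names of each table carry a flow cell code of their own, so a difference in level between tables cannot be told apart from one of flow cell or culture, and every test stays within a table. The 10 erythroid markers of HEL cells were all above 1 CPM in every group, with a summed level of 1490 to 5360 CPM, and 7 to 8 of 10 megakaryocyte markers were, with 1840 to 5200 CPM. Of 10 markers of monocytes and granulocytes 2 to 4 were above 1 CPM, LYZ among them in every group. That list summed to 16.3 to 87.9 CPM, and FCGR3B was at or below the floor of 3 counts in every group. In bulk RNA, fewer cells of a type and less RNA per cell cannot be told apart.

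Most members sit together in the S100 cluster of chromosome 1. On GRCh38, with GENCODE 29 gene bounds, S100A10 (ENSG00000197747) lies at chr1:151982915-151994390 and S100A11 (ENSG00000163191) at chr1:152032506-152047907. S100A9 (ENSG00000163220) lies at chr1:153357854-153361027, S100A8 (ENSG00000143546) at chr1:153390032-153391188 and S100A6 (ENSG00000197956) at chr1:153534599-153536244. S100A4 (ENSG00000196154) follows at chr1:153543613-153550136, S100A16 (ENSG00000188643) at chr1:153606886-153613145 and S100A13 (ENSG00000189171) at chr1:153618787-153631360. S100B (ENSG00000160307) lies apart at chr21:46598962-46605208 and S100P (ENSG00000163993) at chr4:6693069-6697170. S100A9 and S100P are on the plus strand and the other members on the minus strand. S100A13 shares 235 bases of exon, 10.6% of its exon length, with S100A1 on the opposite strand, and 536 bases, 24.2%, with the processed transcript AL162258.1 on the same strand. S100A3 lies within the bounds of S100A4 on the same strand and shares 0 bases of exon with it. With the strand setting of the counting not stated, reads of S100A13 and S100A1 cannot be told apart where their exons overlap.

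The 250 bases upstream of the RefSeq start site are shown for the 4 members that changed between 48 h and 4 h of DMSO with one upstream window each: S100A4 and S100A6, neighbours that rose, and S100A11 and S100P, which fell. They are from RefSeq on GRCh38.p14, written 5′ to 3′ on the gene's own strand and ending just before the start site. RefSeq start sites need not be the outermost GENCODE bounds given above. Capitals mark TATAA, the CRE core TGACG and the GC box GGGCGG on either strand.
S100A4 (chr1:153545807-153546056, minus strand): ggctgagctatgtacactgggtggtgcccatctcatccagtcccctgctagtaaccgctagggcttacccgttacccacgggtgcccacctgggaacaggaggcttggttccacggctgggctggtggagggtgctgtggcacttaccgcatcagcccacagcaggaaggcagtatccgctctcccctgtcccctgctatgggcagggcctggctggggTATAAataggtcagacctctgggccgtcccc
S100A6 (chr1:153535992-153536241, minus strand): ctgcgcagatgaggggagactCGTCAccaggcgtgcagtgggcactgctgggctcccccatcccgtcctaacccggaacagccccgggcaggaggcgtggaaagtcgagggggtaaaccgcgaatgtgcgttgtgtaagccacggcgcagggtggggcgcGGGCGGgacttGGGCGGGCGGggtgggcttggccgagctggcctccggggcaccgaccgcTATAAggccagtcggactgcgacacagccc
S100A11 (chr1:152037005-152037254, minus strand): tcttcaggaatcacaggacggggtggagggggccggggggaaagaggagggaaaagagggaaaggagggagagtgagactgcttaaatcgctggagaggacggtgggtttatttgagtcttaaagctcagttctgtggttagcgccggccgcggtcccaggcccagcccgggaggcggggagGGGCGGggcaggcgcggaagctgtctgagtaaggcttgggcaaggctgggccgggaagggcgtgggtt
S100P (chr4:6693628-6693877, plus strand): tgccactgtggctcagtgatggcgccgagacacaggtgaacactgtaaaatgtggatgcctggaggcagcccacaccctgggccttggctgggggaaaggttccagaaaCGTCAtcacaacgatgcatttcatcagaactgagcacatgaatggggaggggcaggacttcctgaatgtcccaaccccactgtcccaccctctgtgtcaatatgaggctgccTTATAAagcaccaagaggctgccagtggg

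Windows of 250 bases before to 50 after the start, 14 in all for the 9 members that have one, were searched on both strands for 6 motifs. TATAA, the TATA core, was present in 7 of the 14 windows, from 6 of 9 members, against 20.4% of 35116 windows of the same length. It started 31 bases before the start site in S100A4, 30 in S100A6 and 28 in S100P, where it overlaps its own reverse complement, and was not found in the window of S100A11. The GC box core GGGCGG was in 6 of 14 windows against 45% of all windows, and S100A6 held it at 3 places, of which 2 overlap. The CRE core TGACG, in 24.6% of all windows, was found for S100A6 (starting at -229), S100P (-141) and S100A13 (-101). GATAA, bound by GATA factors, was found for S100A13 alone, against 22.7% of all windows. An AP-1 core written TGANTCA was in 0 of the 14 windows, against 7.71% of all windows. A STAT core written TTCNNNGAA was also in 0 of the 14, against 7.66%. Windows of 1 gene can overlap and then share a match, and a match is a description of letters only.

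Per length of exon, S100A4, S100A11, S100A6 and S100A10 were the 4 most abundant members in each group of HEL cells given no inhibitor. With DMSO for 48 h, S100A4 had 205 ± 52.0 CPM per kb of exon and S100A6 114 ± 9.06 (mean ± SD, n = 2 here and below). S100A11 averaged 112 CPM per kb of exon, from libraries of 104 and 121, and overlapped S100A6. S100A10 followed with 28.4 ± 5.83 CPM per kb. Much lower came S100A13 with 3.78 ± 1.27 CPM per kb, S100P with 1.61 ± 0.516, S100B with 0.581 ± 0.247 and S100A16 with 0.260 ± 0.176.
With DMSO for 4 h S100A11 led with 153 ± 3.64 CPM per kb, ahead of S100A4 with 107 ± 0.161 and S100A6 with 74.0 ± 4.62. The order below was S100A10 (24.4 ± 0.641 CPM per kb), S100P (5.71 ± 0.591), S100A13 (1.17 ± 0.0139), S100B (0.783 ± 0.0622) and S100A16 (0.209 ± 0.0940), with no overlap between neighbours. S100P therefore stood above S100A13 in DMSO at 4 h and below it in DMSO at 48 h.
With DMSO for 24 h S100A11 had 126 ± 4.00 and S100A4 73.9 ± 0.955 CPM per kb, and S100A10 (46.7 ± 0.403) and S100A6 (45.0 ± 3.57) overlapped. S100P was the lowest tested member there with 0.236 ± 0.0105 CPM per kb, under S100A16 with 0.393 ± 0.0846. In parental cells S100A4 had 146 ± 22.0, S100A11 105 ± 36.8 and S100A6 90.9 ± 1.17 CPM per kb, and the range of S100A11 met those of both others. S100B (0.111 ± 0.0811 CPM per kb) and S100P (0.109 ± 0.0387) also overlapped in parental cells. Scaling by coding length put S100A4 ahead of S100A11 in DMSO at 4 h and S100A6 ahead of S100A11 in parental cells. In DMSO at 24 h it put S100A10 (249 and 246 CPM per kb of coding sequence) above S100A6 (171 and 153) with no overlap, whereas the longest transcript put S100A10 (60.4 and 59.6 CPM per kb) below S100A6 (68.6 and 61.3).

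**Figure D1:**
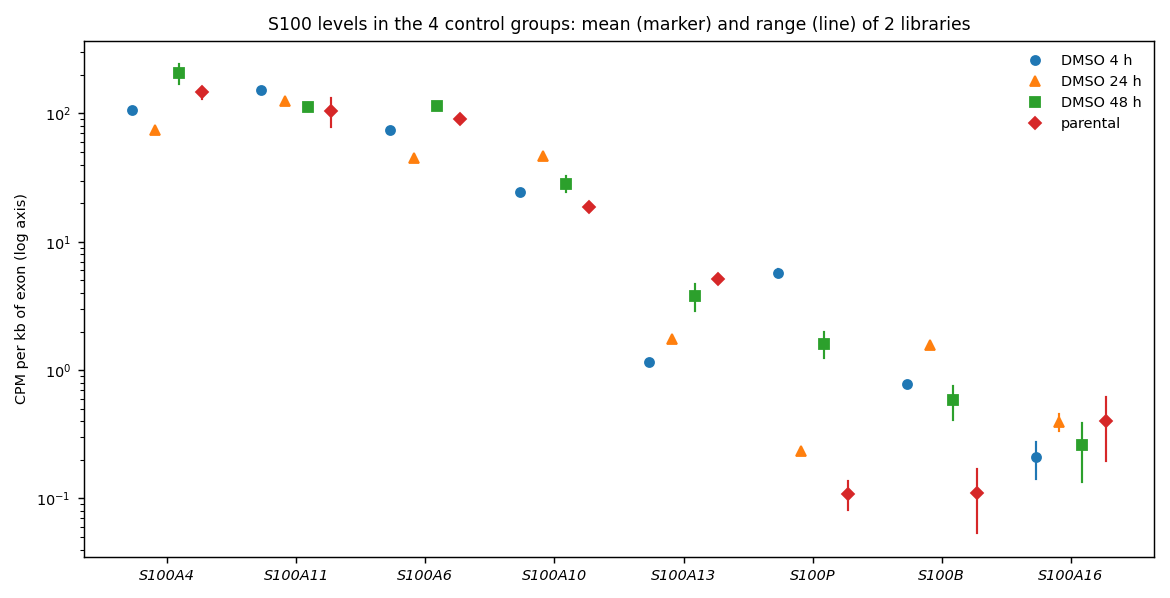
Level of the 8 tested members in the 4 control groups, as CPM per kb of exon on a log axis, with the mean as a marker and the range of 2 libraries as a line. S100A4, S100A11, S100A6 and S100A10 lie well above S100A13, S100P, S100B and S100A16 in each of these groups.

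S100A8 and S100A9, the calprotectin pair, were at the counting floor. The floor of 3 counts, set as an approximate and not an absolute limit of counting error behind a 0, was 0.0351 to 0.0604 CPM per library. It would be higher if both mates of a read pair were counted. S100A8 had 0 counts in all 8 libraries of the BCI table. In the BI-D1870 table it had 0 and 0 counts with BI-D1870 and BCI, 0 and 0 with BI-D1870, and 1 and 2 with DMSO. In the persistent table it had 0 and 0 counts in FedP cells, 2 and 3 in RuxP cells and 3 and 0 in parental cells. No library was thus above 3 counts of S100A8.
S100A9 had 0 to 2 counts in every library of the BCI and BI-D1870 tables. In the persistent table it had 0 and 2 counts in FedP cells, 46 and 1 in RuxP cells and 1 and 0 in parental cells. RuxP replicate 1 stood alone, and RuxP replicate 2 was level with the parental libraries. No fold is given for either gene, since the other groups were at or under the floor.

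**Figure D2:**
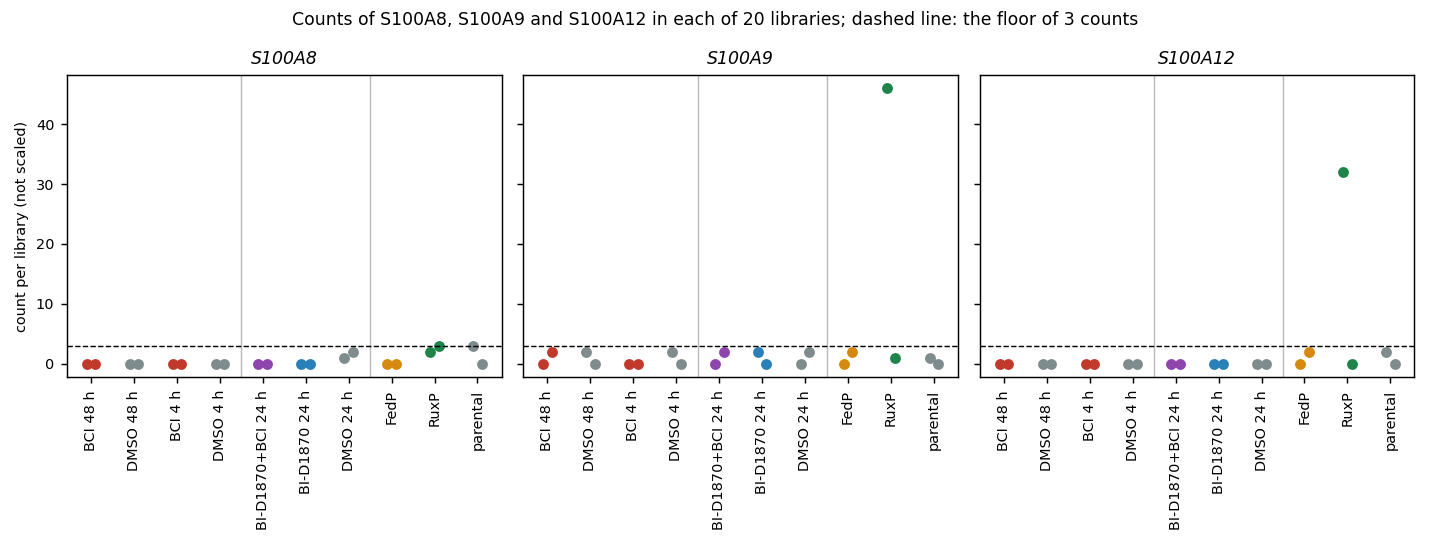
Unscaled counts of S100A8, S100A9 and the related S100A12 in each of the 20 libraries, by group, with the floor of 3 counts dashed. All points lie at or under the floor except those of S100A9 (46) and S100A12 (32) in RuxP replicate 1.

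Between 48 h and 4 h of DMSO, a comparison of the solvent controls, S100A4, S100A6 and S100A13 rose and S100A11 and S100P fell, so 5 of 8 tested members were called, against 13.5% of all genes called up and 13.2% called down. S100A4, a partner of non-muscle myosin IIA, had 173 and 248 CPM in DMSO at 48 h, against 109.9 and 109.6 CPM in DMSO at 4 h (log2 fold change 0.94, SE 0.171, adjusted p = 0.0038). Both later libraries were higher, and they differed from each other more than those at 4 h.
S100A6, the partner of the calcyclin-binding protein CACYBP, had 104 and 117 CPM at 48 h, against 75.1 and 68.7 CPM at 4 h (log2 0.62, SE 0.0902, adjusted p = 0.0013). S100A13, which takes part in the release of FGF1 and interleukin 1 alpha, had 6.38 and 10.4 CPM at 48 h, against 2.56 and 2.61 CPM at 4 h (log2 1.69, SE 0.339, adjusted p = 0.0059). Its opposite-strand neighbour S100A1 rose as well (log2 1.22, SE 0.262, adjusted p = 0.0082), and the part of shared reads in the value of S100A13 was not tested.
S100P, which binds ezrin, had 1.59 and 2.52 CPM at 48 h, against 6.78 and 7.85 CPM at 4 h (log2 -1.83, SE 0.270, adjusted p = 0.0014), the largest fall of a member here. S100A11, which binds annexin A1, had 70.5 and 82.1 CPM at 48 h, against 102 and 106 CPM at 4 h (log2 -0.45, SE 0.0925, adjusted p = 0.0071). The groups did not overlap for any of these 5 members, and overlapped for S100A10, S100A16 and S100B. The share of all genes without overlap was not counted.
S100A10 had 37.5 and 50.3 CPM at 48 h, against 36.9 and 38.3 CPM at 4 h, and did not pass (log2 0.22, 95% interval -0.09 to 0.53, adjusted p = 0.27). S100B (log2 -0.43) and S100A16 (log2 0.31) did not pass either, with adjusted p = 0.41 and 0.79.
Leaving out DMSO 4 h replicate 2 ended the calls of S100A11 (adjusted p = 0.068) and S100A13 (0.054), leaving out DMSO 4 h replicate 1 ended that of S100A13 (0.057), and leaving out DMSO 48 h replicate 1 brought S100A10 past the threshold (log2 0.41, adjusted p = 0.024).

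The same span in BCI-treated cells, compared after the DMSO values had been seen, gave 3 called members, S100A4 (log2 1.18, SE 0.172, adjusted p = 0.0011), S100A6 (log2 0.65, SE 0.0902, adjusted p = 8.3e-04) and S100P (log2 -1.70, SE 0.266, adjusted p = 0.0017), against 13.8% of all genes called up and 11.7% down. S100A11 (log2 -0.27, adjusted p = 0.058), S100A16 (log2 -2.18, adjusted p = 0.069) and S100A13 (log2 0.74, adjusted p = 0.13) did not pass. S100A16 had 0.129 and 0.0956 CPM with BCI at 48 h and 0.822 and 0.217 CPM with BCI at 4 h.

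**Figure D3:**
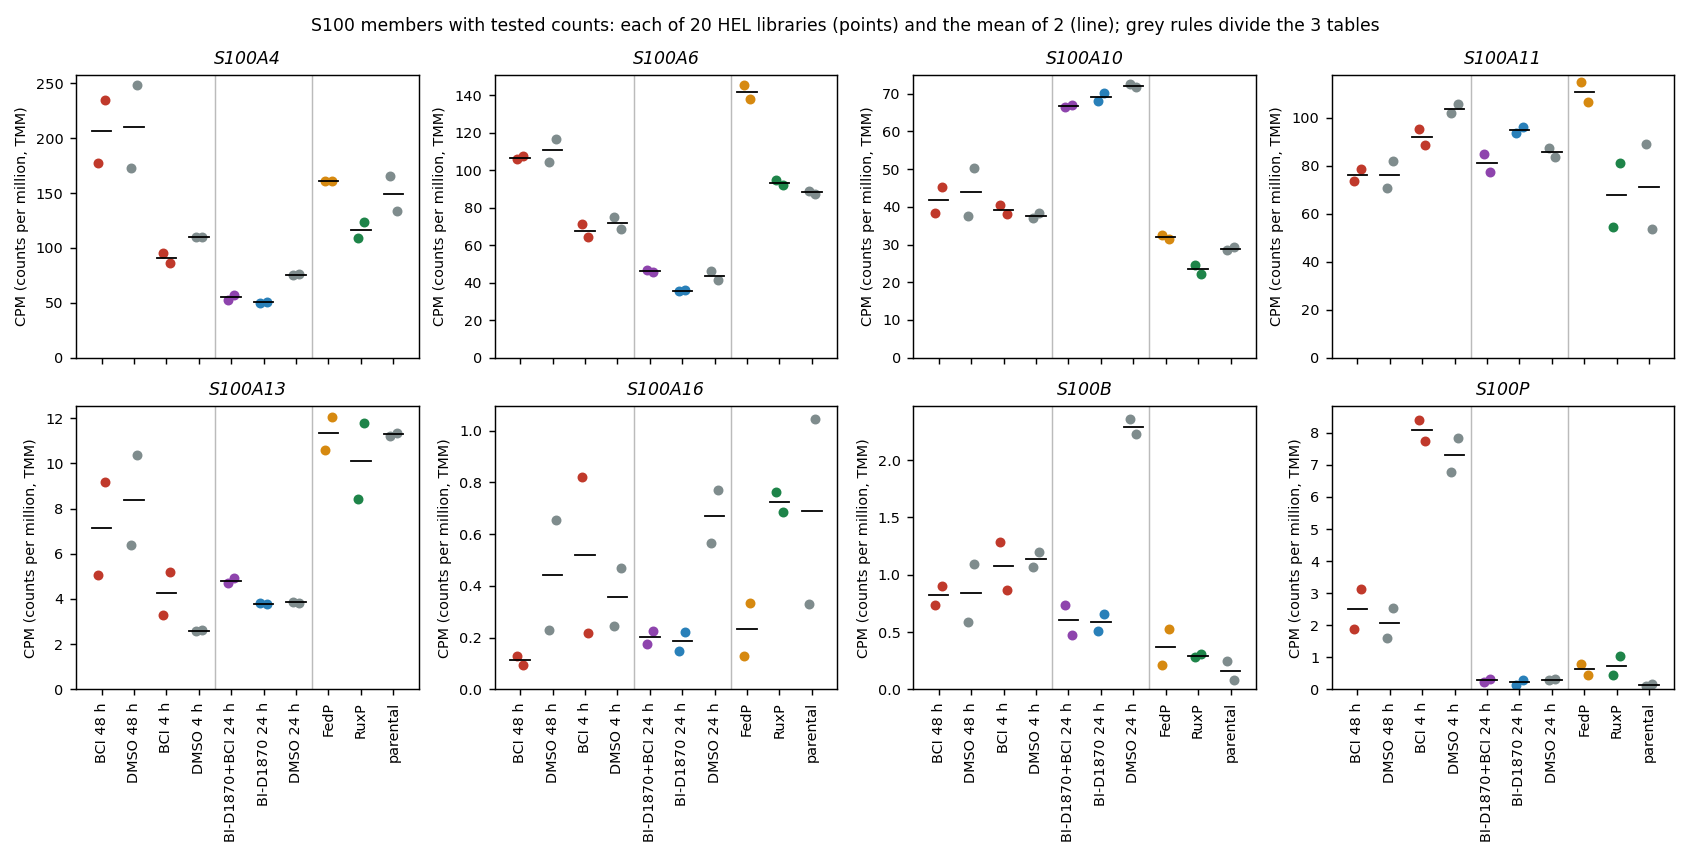
CPM of the 8 tested members in each of the 20 libraries (points) with the mean of 2 (line), by group, with grey rules between the 3 tables. S100A4 and S100A6 are high and S100P is low in both groups at 48 h relative to both groups at 4 h, and S100B is low in both BI-D1870 groups relative to DMSO at 24 h.

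BCI itself called 0 of the 8 members at either time. At 4 h, where 4.8% of all genes were called up and 5.94% down by edgeR, 0 members had an unadjusted p under 0.05, and DESeq2 and limma-voom called 0 members each. S100A13 had 3.29 and 5.20 CPM with BCI, against 2.56 and 2.61 CPM with DMSO (log2 0.72, 95% interval -0.05 to 1.48, adjusted p = 0.24). S100A4 had 95.8 and 86.6 CPM with BCI, against 109.9 and 109.6 CPM with DMSO (log2 -0.27, 95% interval -0.65 to 0.11, adjusted p = 0.40). S100A11 had 95.2 and 88.7 CPM with BCI, against 102 and 106 CPM with DMSO (log2 -0.18, 95% interval -0.38 to 0.03, adjusted p = 0.30). In these 3 genes the libraries of the groups did not overlap, in the other 5 they did. With 2 libraries per group, separation can occur without a change in level, and its share over all genes was not counted. When only the 4 libraries at 4 h entered the fit, S100A4 (adjusted p = 0.0019), S100A11 (0.026) and S100A13 (0.011) passed.
At 48 h, 0% of all genes were called up and 0% down by edgeR (316 of 21908 had an unadjusted p under 0.05, and DESeq2 and limma-voom called 0). Replicates differed more at 48 h than at 4 h. Chi-square of the counts between replicates, per degree of freedom, was 51.7 with BCI and 67.8 with DMSO, against 16.8 and 5.35 at 4 h. S100A16, a member of low calcium affinity, was the single one with an unadjusted p under 0.05, and had 0.129 and 0.0956 CPM with BCI, against 0.231 and 0.654 CPM with DMSO (log2 -1.95, 95% interval -3.71 to -0.20, adjusted p = 1.0). For S100A4, S100A6, S100A10 and S100A11 the 95% intervals at 48 h lay between -0.41 and 0.35 on the log2 scale. The difference between the BCI effects at 48 h and 4 h passed for 0 of 8 members, against 2.08% of all genes called up and 1.37% down (S100A16 alone had an unadjusted p under 0.05, and DESeq2 and limma-voom called 0). The largest such differences were those of S100A16 (log2 -2.49, SE 1.06, adjusted p = 0.26) and S100A13 (log2 -0.95, SE 0.466, adjusted p = 0.34), and both passed without the filter on low counts (adjusted p = 0.029 and 0.015). That of S100A16 was -1.24 without BCI 4 h replicate 1, -1.56 without DMSO 48 h replicate 2 and -3.16 without BCI 4 h replicate 2, and did not pass in any of them.

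BI-D1870 lowered 4 of the 8 members and raised 1 at 24 h, in a comparison where 24.3% of all genes were called down and 22.8% up. S100B, best known from glia and a binder of p53, had 0.505 and 0.662 CPM with BI-D1870, against 2.36 and 2.23 CPM with DMSO (log2 -1.96, SE 0.298, adjusted p = 1.7e-05). S100A16 had 0.150 and 0.221 CPM with BI-D1870, against 0.566 and 0.770 CPM with DMSO (log2 -1.83, SE 0.533, adjusted p = 0.0078). Both are low genes, S100B with 27 to 136 and S100A16 with 8 to 47 counts per library of this table.
Of the abundant members, S100A4 had 50.1 and 51.1 CPM with BI-D1870, against 75.1 and 76.4 CPM with DMSO (log2 -0.58, SE 0.0525, adjusted p = 1.8e-08). S100A6 had 35.3 and 35.9 CPM with BI-D1870, against 46.2 and 41.3 CPM with DMSO (log2 -0.30, SE 0.0613, adjusted p = 4.9e-04). S100A11 rose slightly, with 93.7 and 96.0 CPM with BI-D1870, against 87.6 and 83.7 CPM with DMSO (log2 0.15, SE 0.0501, adjusted p = 0.021). No called member had overlapping groups, but neither did S100A10, S100A13 and S100P, which did not pass. Separation therefore does not set the called members apart here. Marker lists moved in the same comparison. Summed over each list, monocyte and granulocyte markers had 16.6 to 17.0 CPM with BI-D1870, against 44.8 to 48.3 CPM with DMSO. Of that list VCAN had 4.70 and 4.71 CPM with BI-D1870, against 27.9 and 32.6 CPM with DMSO, 2 of the 10 were above 1 CPM with BI-D1870 and 3 with DMSO, and ELANE, FCGR3B, FCN1 and MPO were at or below the floor in both groups. Lymphoid markers had 9.88 to 10.2 CPM with BI-D1870, against 22.5 to 24.0 CPM with DMSO, with CD3D and MS4A1 at or below the floor in both. Erythroid markers had 3900 to 4010 CPM with BI-D1870, against 5140 to 5360 CPM with DMSO. Of that list HBG2 had 1809 and 1836 CPM with BI-D1870, against 2477 and 2658 CPM with DMSO. EPOR (72.6 and 73.2 CPM, against 39.0 and 43.0) and TAL1 (462 and 473 CPM, against 389 and 399) were higher with BI-D1870. The rest of the erythroid list was lower. With the pair these 3 lists had 16.3 to 16.9, 10.8 to 11.3 and 2900 to 3230 CPM. Megakaryocyte markers had 1950 to 1960 CPM with BI-D1870 and 1980 to 2040 with the pair, against 2390 to 2470 with DMSO. Epithelial and stromal markers had 22.4 to 24.2 and 27.8 to 29.7 CPM, against 29.2 to 33.2 with DMSO. Within these lists ITGB3 (126 and 122 CPM, against 73.7 and 77.2) and KRT8 (9.72 and 9.64 CPM, against 7.42 and 5.57) were higher with BI-D1870. At few counts, so were CDH1 (2 and 12 counts, against 1 and 0) and KRT19 (2 and 29 counts, against 0 and 1). In the monocyte and granulocyte list CD14 was higher, with 13 and 14 counts, against 1 and 10 with DMSO. The part of the marker lists in the members' values was not tested.
S100A10 had 68.1 and 70.1 CPM with BI-D1870, against 72.6 and 71.7 CPM with DMSO (log2 -0.06, 95% interval -0.16 to 0.04, adjusted p = 0.31). S100A13 (log2 -0.02) and S100P (log2 -0.46, at 8 to 23 counts per library) did not pass, with adjusted p = 0.93 and 0.57.
The call of S100A11 was lost without DMSO 24 h replicate 2 (adjusted p = 0.15), BI-D1870 replicate 1 (0.053) or BI-D1870 replicate 2 (0.072), and that of S100A16 without DMSO 24 h replicate 2 (0.083) or BI-D1870 replicate 1 (0.065).

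With BI-D1870 and BCI together, 3 members were lower than with DMSO, the same control libraries as above, and 0 higher, against 24.3% of all genes called down and 22.6% up. S100B had 0.736 and 0.478 CPM with the pair, against 2.36 and 2.23 CPM with DMSO (log2 -1.92, SE 0.291, adjusted p = 1.6e-05). S100A16 had 0.177 and 0.225 CPM with the pair, against 0.566 and 0.770 CPM with DMSO (log2 -1.73, SE 0.518, adjusted p = 0.0095), a call lost without DMSO 24 h replicate 2 (adjusted p = 0.10) or pair replicate 1 (0.071). S100A4 had 52.8 and 57.5 CPM with the pair, against 75.1 and 76.4 CPM with DMSO (log2 -0.46, SE 0.0518, adjusted p = 3.9e-07).
S100A6 had 46.7 and 45.8 CPM with the pair and 46.2 and 41.3 CPM with DMSO (log2 0.08, 95% interval -0.04 to 0.21, adjusted p = 0.29). S100A10 had 66.5 and 66.9 CPM with the pair, against 72.6 and 71.7 CPM with DMSO, just short of the threshold (log2 -0.11, 95% interval -0.21 to -0.02, adjusted p = 0.054). It passed with a stricter low-count filter or a replicate block. S100A13 had 4.69 and 4.93 CPM with the pair, against 3.85 and 3.83 CPM with DMSO (log2 0.325, 95% interval 0.03 to 0.62, adjusted p = 0.071). S100A11 (log2 -0.08) and S100P (log2 -0.11) did not pass either, with adjusted p = 0.23 and 0.90.

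Adding BCI to BI-D1870 changed 2 members in opposite directions, against 2.22% of all genes called up and 2.48% down. S100A6 had 46.7 and 45.8 CPM with the pair, against 35.3 and 35.9 CPM with BI-D1870 alone (log2 0.38, SE 0.0607, adjusted p = 8.4e-04). Pair libraries of S100A6 stood above both BI-D1870 libraries and beside those of DMSO. S100A11 had 84.8 and 77.6 CPM with the pair, against 93.7 and 96.0 CPM with BI-D1870 alone (log2 -0.22, SE 0.0499, adjusted p = 0.011). The call of S100A11 was lost without BI-D1870 replicate 1 (adjusted p = 0.081), BI-D1870 replicate 2 (0.15) or pair replicate 2 (0.26).
S100A13 had 4.69 and 4.93 CPM with the pair, against 3.80 and 3.78 CPM with BI-D1870 alone, and did not pass (log2 0.34, 95% interval 0.05 to 0.64, adjusted p = 0.22). S100B (log2 0.04, 95% interval -0.63 to 0.72) and S100A16 (log2 0.11, 95% interval -1.10 to 1.31) did not pass, with adjusted p = 0.97 and 0.96.

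**Figure D4:**
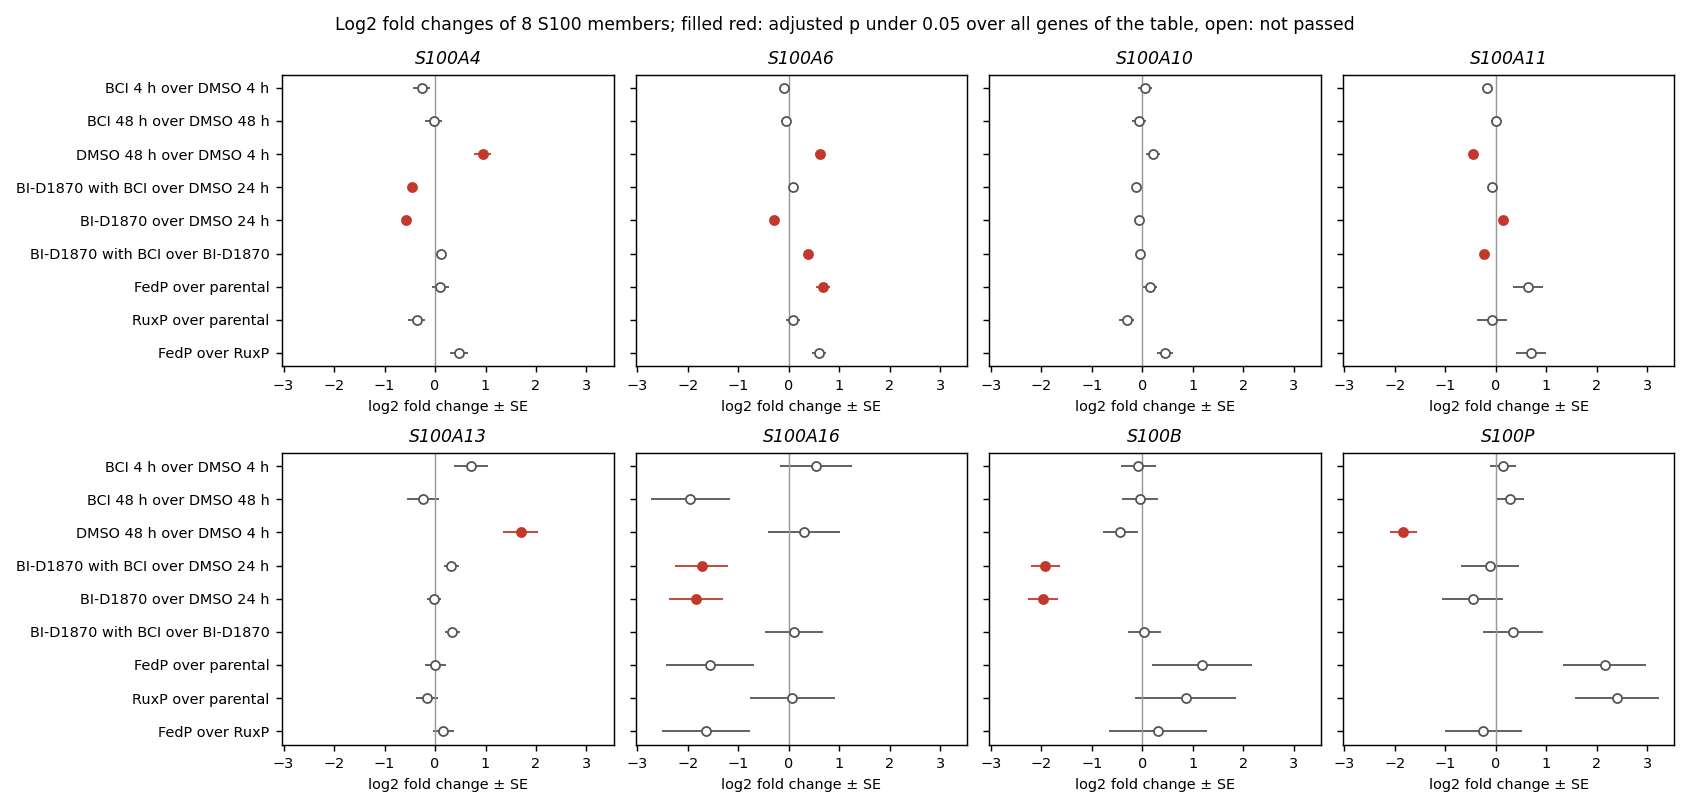
Log2 fold change with SE of the 8 tested members in 9 comparisons, filled red where the adjusted p was under 0.05 over all genes of the table. S100A10 has no filled point, S100B and S100A16 are filled at both BI-D1870 comparisons with DMSO, and S100A6 and S100A11 move in opposite directions in all 3 comparisons where both are filled. Of these, the comparisons that involve BI-D1870 alone share its libraries. S100A6 and S100A11 share a sign with BCI at 4 h and 48 h and for FedP over parental or RuxP cells. They differ in sign for the pair over DMSO and for RuxP over parental cells.

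The spread between replicates was largest in the persistent table, parental cells included (biological coefficient of variation 26.9%, against 5.01% in the BI-D1870 table). Chi-square of the counts between replicates, per degree of freedom, was 327 in parental, 86.9 in RuxP and 4.92 in FedP cells. The 2 parental libraries thus differed most from each other, with GATA1 at 286 and 144 CPM. S100A6, in FedP over parental cells, was the single member to pass in that table. It had 145 and 138 CPM in FedP cells, against 89.0 and 87.4 CPM in parental cells (log2 0.68, SE 0.140, adjusted p = 0.043), beside 3.84% of all genes called up and 2.79% down. RuxP cells had 94.6 and 91.9 CPM of S100A6, a difference from parental cells of 0.08 on the log2 scale (95% interval -0.26 to 0.42, adjusted p = 0.76). The call of S100A6 in FedP cells was lost without FedP replicate 1 (adjusted p = 0.53) or 2 (0.42), without RuxP replicate 1 (0.098) or 2 (0.10), with only the FedP and parental libraries in the fit (0.096) and with DESeq2's size factors (0.050, before rounding not under the threshold).
RuxP cells had 0 of 8 members called against parental cells by edgeR, with 1 (S100P) at an unadjusted p under 0.05 and 0 by DESeq2 and by limma-voom, beside 4.28% of all genes called up and 2.17% down. S100P had 0.797 and 0.455 CPM in FedP cells and 0.443 and 1.04 CPM in RuxP cells, against 0.104 and 0.174 CPM in parental cells. All 4 persistent libraries of S100P were above both parental ones, yet it did not pass in FedP (log2 2.16, 95% interval 0.15 to 4.17, adjusted p = 0.18) or in RuxP cells (log2 2.41, 95% interval 0.38 to 4.43, adjusted p = 0.15), at 6 to 68 counts per library. S100A4 had 109 and 123 CPM in RuxP cells, against 166 and 134 CPM in parental cells (log2 -0.37, 95% interval -0.78 to 0.05, adjusted p = 0.25), and passed without parental replicate 2 (log2 -0.53, adjusted p = 0.047).
FedP cells against RuxP cells gave 0 called members by edgeR and by limma-voom, 3 at an unadjusted p under 0.05 (S100A4, S100A6 and S100A10) and 1 by DESeq2 (S100A6), beside 0.232% of all genes called up and 1.16% down. S100A6 was closest (log2 0.60, 95% interval 0.26 to 0.94, adjusted p = 0.087). S100A10 had 32.6 and 31.5 CPM in FedP cells, against 24.6 and 22.1 CPM in RuxP cells (log2 0.45, 95% interval 0.09 to 0.82, adjusted p = 0.12), and parental cells lay between them with 28.4 and 29.4 CPM. S100A4 (log2 0.47, adjusted p = 0.13) and S100A11 (log2 0.71, adjusted p = 0.16) were also higher in both FedP libraries than in both RuxP ones.
S100A11 had 115 and 107 CPM in FedP cells and 54.6 and 81.3 CPM in RuxP cells, against 89.0 and 53.6 CPM in parental cells, and its parental libraries differed from each other as much as the groups did. Without parental replicate 1, S100A11 passed in FedP over parental cells (log2 1.05, adjusted p = 0.029), and S100A4, S100A6, S100A10 and S100A11 passed in FedP over RuxP cells (adjusted p = 0.025, 0.013, 0.042 and 0.046). Without parental replicate 2, S100A4, S100A6 and S100A10 passed there (0.030, 0.014 and 0.030).

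Binding partners and receptors of S100 proteins, a list of 41 genes of which 38 or 39 were tested per table, were read beside the members. Of 39 tested, 24 fell, 8 rose and 7 did not pass with BI-D1870, beside 24.3% of all genes called down and 22.8% up, with a median log2 fold change of -0.30, beside -0.014 over all genes. The largest fall in each of the 4 role groups was that of the giant scaffold AHNAK, which binds the complex of S100A10 and annexin A2 (log2 -1.50, SE 0.0770, adjusted p = 5.9e-12), the actin bundler LCP1 (log2 -1.10, SE 0.0403, adjusted p = 4.2e-14), the adhesion receptor ALCAM (log2 -1.45, SE 0.165, adjusted p = 4.4e-07) and the cytokine gene IL1A (log2 -2.39, SE 0.791, adjusted p = 0.018). SYT1 (log2 -2.12, adjusted p = 5.8e-08) and CASP1 (log2 -2.21, adjusted p = 0.0031), in the role group of IL1A, fell further than AHNAK did. With the pair 22 fell and 7 rose, beside 24.3% of all genes called down and 22.6% up. AHNAK (log2 -1.40), LCP1 (log2 -1.29) and ALCAM (log2 -1.44) fell again relative to the same DMSO libraries, and IL1A did not pass.
Against BI-D1870 alone the pair raised 2 partners and lowered 4, beside 2.22% of all genes called up and 2.48% down. ANXA2, the annexin that S100A10 holds, rose (log2 0.68, SE 0.0602, adjusted p = 1.1e-06) where S100A10 had a log2 fold change of -0.05. The co-chaperone STIP1 fell (log2 -0.40, SE 0.0379, adjusted p = 2.4e-06).
At 4 h of BCI 5 of 38 partners rose and 2 fell, beside 4.8% of all genes called up and 5.94% down, with a median of 0.02, beside 0.02 over all genes. CACYBP rose (log2 1.43, SE 0.102, adjusted p = 7.9e-05) while its partner S100A6 had a log2 fold change of -0.09, and ANXA1 rose (log2 1.19, SE 0.224, adjusted p = 0.0097) while S100A11 had -0.18. The scavenger receptor CD36 rose as well (log2 0.55, SE 0.113, adjusted p = 0.014). At 48 h of BCI 0 of 38 passed by edgeR, beside 0% of all genes.
Between 48 h and 4 h of DMSO 6 of 38 partners rose and 7 fell, beside 13.5% of all genes called up and 13.2% down, with a median of 0.04 beside 0.035 over all genes. SYT1, the synaptotagmin of the release complex with S100A13, rose (log2 2.12, SE 0.503, adjusted p = 0.013), and ACTB fell (log2 -0.73, SE 0.0683, adjusted p = 2.1e-04).
In RuxP cells 9 of 39 partners were higher and 1 lower than in parental cells, beside 4.28% of all genes called up and 2.17% down, with a median of 0.28 beside -0.041 over all genes. In FedP cells 7 of 39 were higher and 1 lower, beside 3.84% of all genes called up and 2.79% down, with a median of 0.06 beside 0.011. EZR, the ezrin that S100P binds, was higher in FedP (log2 2.09, SE 0.155, adjusted p = 0.0038) and in RuxP cells (log2 2.54, SE 0.158, adjusted p = 0.0030). ANXA6 was higher in FedP cells (log2 1.82, SE 0.159, adjusted p = 0.0047) and AHNAK in RuxP cells (log2 1.73, SE 0.169, adjusted p = 0.0051). AHNAK was the only one of 39 partners to pass between FedP and RuxP cells by edgeR, beside 0.232% of all genes called up and 1.16% down. AHNAK was lower in FedP (log2 -1.91, SE 0.170, adjusted p = 0.018). With the replicate block 0 genes passed in this comparison, AHNAK included. With only the FedP and RuxP libraries in the fit 5783 genes did. The 2 persistent lines share the parental libraries, so these comparisons are not independent of each other.

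Among 18 further genes of the S100 and fused S100 families, 9 or 10 were tested per table. Between 48 h and 4 h of DMSO 3 of 10 rose and 0 fell, beside 13.5% of all genes called up and 13.2% down, namely TCHH (log2 1.82, SE 0.232, adjusted p = 7.5e-04), S100A5 (log2 1.81, SE 0.492, adjusted p = 0.024) and S100A1. Of 9 tested, BI-D1870 raised FLG (log2 0.52, SE 0.148, adjusted p = 0.0069) and lowered S100A3 (log2 -1.68, SE 0.582, adjusted p = 0.023), the gene within the bounds of S100A4, beside 22.8% of all genes called up and 24.3% down. With the pair over DMSO FLG rose (log2 0.95, SE 0.145, adjusted p = 1.8e-05) and S100Z fell (log2 -2.31, SE 0.801, adjusted p = 0.023), beside 22.6% and 24.3%, and S100A3 did not pass (log2 -0.97, SE 0.539, adjusted p = 0.16). None of the family list passed with BCI at 4 h, with BCI at 48 h, with the pair against BI-D1870 or in the persistent cells by edgeR. These few were named because they passed, after their values were seen.

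Over the 20 libraries, with log2 CPM centred on each table's mean, S100A4 varied most closely with S100A6 (Pearson r 0.78) and S100A13 (0.71), and least like S100P (-0.53). S100A11 had r of -0.10 with S100A4 and 0.06 with S100A6. These are descriptions, since libraries share groups and tables. Of 9879 genes tested in all tables with at least 4 CPM in each, those most like S100A4 were PTGIR (r 0.955), CCDC9B (0.940) and AC005307.1 (0.937). For S100A6 they were CCDC88B (0.915), MELTF (0.897) and WDR27 (0.897), and for S100A11 AEBP1, GPSM1 and ELP5 (0.945 each). S100A13 was most like POLI (0.904), PIGV (0.888) and CARF (0.886), and S100P like PARK7 (0.888), ASNS (0.878) and LAMC1 (0.876). S100B was most like MOK (0.884), KCNAB1 (0.838) and ENO1 (0.832), and S100A16, with its few counts, reached 0.764 with AL645608.2, 0.729 with ZNF182 and 0.721 with BCAT1.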

How the data were processed

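HEL cells were treated in duplicate or kept under a JAK2 inhibitor, and their total RNA was sequenced on a NovaSeq, per the labels. The submitters' processing notes name bcl2fastq, STAR 2.5.1a, GRCh38 and edgeR. The authors deposited raw gene counts, split over 3 tables. The annotation, the counting program and its strand setting are not stated in the sources used here. Among counts of 1 to 20, 59.8 to 73.1% were even, so both mates of a pair were probably counted. The BCI table heads its later columns 24h, and the 48 h of the labels was followed.

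Groups came from the labels, and repeated lines of a gene (116, 116 and 130) were dropped. Each table was fitted alone in R 4.3.3 with edgeR 4.0.16, using filterByExpr by group, TMM, all groups and no replicate block. Benjamini-Hochberg adjustment ran over the 21908, 21328 and 15924 genes tested, two-sided at 0.05, in 10 comparisons. An SE is the log2 fold change divided by the root of the F statistic, and its 95% interval uses the fit's total degrees of freedom (residual 4, 3 and 3). Intervals cover the spread between these libraries, and floors cover counting error only. Members and lists were chosen with earlier results of these data known. All members are named, and a passing partner gene where its change is the largest of its role group in a comparison. For each called member the 3 most correlated genes are named. Further partner values were chosen after they were seen. Code was tested on simulated data. Alternatives were DESeq2 1.42.0, its size factors, limma-voom (limma 3.58.1), other low-count filters, halved counts, fits on fewer groups, a replicate block, leaving out libraries, other gene lengths and, chosen after seeing the data, the time comparison in BCI libraries.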

Additional observations from a re-analysis of the deposited data

Results flagged for a closer look

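S100A9 had 46 counts in RuxP replicate 1 and 1 in RuxP replicate 2, against 1 and 0 in the parental libraries and 0 to 2 in all other libraries. It is listed because this count, in a gene outside every test, stands above the control libraries. S100A12, the other granulocyte alarmin of the cluster, had 32 counts in the same library and 0 in RuxP replicate 2, against 2 and 0 in parental cells, and is listed for the same reason. S100A8 had 2 counts in RuxP replicate 1. In that library and in RuxP replicate 2, the myeloid markers MPO had 30 and 2 counts, CD14 46 and 8, CSF1R 73 and 20, VCAN 101 and 78, AZU1 12 and 9, LYZ 2195 and 2430, CSF3R 117 and 134 and FCN1 1 and 9, and ELANE and FCGR3B were at or below the floor in the group. The summed level of the 10 monocyte and granulocyte markers was 46.1 to 51.8 CPM in RuxP cells, against 78.0 to 87.9 CPM in parental cells. Of that list VCAN had 2.03 and 1.335 CPM in RuxP, against 25.75 and 31.36 in parental cells. LYZ had 44.2 and 41.6 CPM, against 50.5 and 54.3. RuxP replicate 1 stood above both parental libraries in MPO (0.6035 CPM, against 0.104 and 0.116) and CD14 (0.925, against 0.348 and 0.349). So it did in CSF1R (1.47, against 0.609 and 0.426), CSF3R (2.35, against 0.470 and 0.756) and AZU1 (0.241, against 0.122 and 0.0969). ELANE was above the floor in parental cells. The part of these markers in the S100A9 and S100A12 counts was not tested.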

How the results depend on the processing

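Over all 8 tested members, 1155 log2 fold changes were recomputed under the alternatives. Of these, 1053 kept direction and call, 22 lost a call, 23 gained one and 57 changed sign, 0 of the last being of a called member. S100A4 kept its call at 48 h over 4 h of DMSO and with BI-D1870, alone or paired, in every alternative, as did S100A6 at 48 h over 4 h of DMSO, with BI-D1870 and with the pair over BI-D1870, S100P at 48 h over 4 h, and S100B with BI-D1870 alone or paired wherever it was tested. Called members with BCI at 4 h numbered 1 with no low-count filter and 3 with only the groups compared, and for the BCI effect at 48 h minus 4 h 2 with no low-count filter. With BI-D1870 over DMSO a stricter filter left 3, since S100A16 and S100B were then not tested. The time comparison gave 3 in BCI libraries, where S100A16 had a log2 fold change of -2.18. FedP over parental cells gave 0 with DESeq2 size factors, 0 with only the groups compared and 0 with the replicate block, and FedP over RuxP cells gave 1 with DESeq2 and 4 with only the groups compared. With no low-count filter, S100A11 with BCI at 48 h had 0.00214 and S100A13 with BI-D1870 0.00687 on the log2 scale. The cause of these changes was not tested.
Over all genes, calls with BCI at 4 h numbered 2354, against 5691 with only the groups compared, and with BCI at 48 h 0, against 27 with no low-count filter. The difference between times had 757, against 1658 with no low-count filter, 1440 with DESeq2 and 1166 with the block. RuxP over parental cells had 1026, against 324 with the block and 2469 with DESeq2, FedP over parental cells 1055, against 272 and 2573, and FedP over RuxP cells 222, against 0 with the block and 5783 with only the groups compared. Leaving out 1 library also moved these counts and the shares of all genes printed from them. With BCI at 4 h there were 555 to 693 calls with any 1 of the 4 h libraries left out. The difference between times had 88 to 138 with any 1 of these left out, 436 without BCI 48 h replicate 1 and 1705 without DMSO 48 h replicate 1. At 48 h over 4 h of DMSO 5837 became 2501 and 2498 without DMSO 4 h replicate 1 or 2, and for the pair over BI-D1870 1004 became 325 to 565 with any 1 library of either group left out. RuxP over parental cells had 170 to 582 with any 1 persistent library left out, 1550 without parental replicate 1 and 4157 without parental replicate 2. FedP over parental cells had 197 to 561 with any 1 persistent library left out and 5293 without parental replicate 1. FedP over RuxP cells had 0 with any 1 persistent library left out and 5672 or 5332 without parental replicate 1 or 2.
The replicate block moved S100A6 in FedP cells to adjusted p = 0.15 and brought S100A10 past the threshold with the pair over DMSO (adjusted p = 0.040), and changed no other call of a member. Same-numbered libraries had correlated deviations between BCI and DMSO at 48 h (r 0.32) and between the pair and DMSO at 24 h (0.12), and r from -0.22 to 0.05 otherwise. With 2 numbers the pairing is not shown.
When each library was left out in turn, called members ranged from 3 to 5 with BI-D1870, from 1 to 2 with the pair over BI-D1870, from 3 to 6 at 48 h over 4 h of DMSO, from 0 to 2 in FedP over parental, from 0 to 4 in FedP over RuxP and from 0 to 1 in RuxP over parental cells. A lone library left in a group is then assumed to vary like the other groups. Log2 fold changes printed in the report that crossed 0 ranged, with BCI at 48 h, from -0.256 to 0.253 for S100A4, -0.122 to 0.0282 for S100A6, -0.257 to 0.152 for S100A10 and -0.098 to 0.108 for S100A11. At 48 h over 4 h of DMSO they ranged from -0.000745 to 0.409 for S100A10 and -0.621 to 0.863 for S100A16. With BI-D1870 S100A13 ranged from -0.0246 to 0.0178, and with the pair over BI-D1870 S100A16 ranged from -0.133 to 0.413 and S100B from -0.296 to 0.323. Among values not printed there, S100A11 in RuxP over parental cells ranged from -0.405 to 0.365 and S100A16 with BCI at 4 h from -0.717 to 1.21 over all alternatives. At 4 to 136 counts per library, S100A16, S100B and, outside the BCI table, S100P are limited by depth.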
